A study of Mus musculus with 12 samples.

Results

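MicroRNA levels were compared between XBP1-deficient and wild type mouse embryonic fibroblasts after 12 h in tunicamycin. The comparison took the 2 knockout and the 2 wild type arrays labelled for 12 h, 4 of the 12 arrays of the series. Both groups were embryonic fibroblasts on the C57BL/6 background and received 2 ug/mL tunicamycin, so they differed by label only in the XBP1 genotype (XBP1KO or XBP1WT). The other groups were the same genotypes untreated or after 24 h, with 2 arrays each. The labels do not say whether a genotype was a single cell line or how many embryos gave it, and the 2 replicates are described as independent experiments. If they were repeats of 1 line, the tests measure the spread between experiments and not between embryos. The arrays hold no probe for the Xbp1 mRNA, so the deletion itself could not be checked here.

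XBP1 is a transcription factor that cells switch on when the endoplasmic reticulum is under stress, as 1 branch of the unfolded protein response. Tunicamycin blocks N-linked glycosylation, unfolded proteins build up in the endoplasmic reticulum, and the sensor IRE1 splices the Xbp1 mRNA so that the active factor can be made. A miRNA is a short RNA cut from a hairpin precursor, and it represses mRNAs that pair with its seed, bases 2 to 8 counted from its 5′ end. miRNAs that share a seed are counted as a family, because they can bind the same target sites. The 2 arms of a hairpin can both give a stable strand, and older names mark the less abundant one with an asterisk.

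The sequences below are those of the miRNAs that the differences at 12 h turn on, with relatives of the same seed or the same transcript set beneath them. They are RefSeq mature sequences (GRCm38.p6), written 5′ to 3′ with the seed in capitals, and 147 of the 256 tested miRNAs matched that table.
miR-31: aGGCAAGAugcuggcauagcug
miR-31*: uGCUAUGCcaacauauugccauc
miR-148a: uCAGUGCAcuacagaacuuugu
miR-148b: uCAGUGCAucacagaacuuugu
miR-152: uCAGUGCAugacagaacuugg
miR-155: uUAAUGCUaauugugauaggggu
miR-22: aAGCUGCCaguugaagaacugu
miR-300: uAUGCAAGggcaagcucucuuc
miR-434-3p: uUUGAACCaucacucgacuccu
miR-337-5p: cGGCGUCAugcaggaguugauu
miR-361: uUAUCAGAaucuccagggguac
miR-210: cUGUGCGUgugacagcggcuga
miR-221: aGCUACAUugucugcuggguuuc
miR-222: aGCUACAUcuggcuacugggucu
miR-27a: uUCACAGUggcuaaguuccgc
miR-23a: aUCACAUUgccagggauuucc
miR-24: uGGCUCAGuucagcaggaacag
miR-196a: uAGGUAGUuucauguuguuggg
miR-196b: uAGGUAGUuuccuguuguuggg
miR-99a: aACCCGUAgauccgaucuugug
miR-100: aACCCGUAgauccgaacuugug
miR-195: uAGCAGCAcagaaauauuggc
miR-497: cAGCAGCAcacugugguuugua
miR-148a, miR-148b and miR-152 have 1 seed and differ only outside it. From miR-148a to miR-148b the changes, counted from the 5′ end, are C9U and U10C, and to miR-152 they are C9U, U10G and U20G. miR-196a and miR-196b differ by A12C, and miR-99a and miR-100 by U16A. How far an array probe tells such pairs apart was not tested.

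Of 611 mouse miRNAs on the array, 256 were detected on both arrays of at least 1 of the 6 groups and were tested. At 12 h, 157 of them were detected on all 4 arrays and 49 on none. Values are spot signals summed per miRNA and scaled between arrays to 1 common 75th percentile, and scaled signals under 13.1 were set to that floor before taking log2. Unscaled array totals at 12 h were 32310 and 67423 (wild type) and 40327 and 78153 (knockout), all lower than the untreated totals of 94809 to 185591. Wild type and knockout arrays of 1 replicate number were scanned together on 1 slide, wild type always in the first array row and knockout in the second, so that array row and genotype cannot be told apart. The number of arrays limits the precision: with 2 against 2, an exact two-sided permutation test cannot go below p = 0.333.

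After 12 h of tunicamycin, 13 miRNAs differed between the genotypes (limma, Benjamini-Hochberg adjusted p under 0.05), which is 5.08% of the 256 tested. By direction, 9 were lower in the knockout (3.52%) and 4 were higher (1.56%). At an unadjusted p under 0.05 there were 41. The split by direction moved with the scaling: 5 higher and 2 lower with quantile normalization, 2 and 2 with the percentile over all mouse miRNAs, and 8 and 8 with median scaling. The lower ones were both strands of the miR-31 hairpin, miR-148a, miR-155, miR-22, miR-320 and 3 miRNAs of the imprinted Dlk1-Dio3 region. The higher ones were miR-199b*, miR-361, miR-210 and miR-290-5p. Of the 13, 7 were detected on all 4 arrays. In 22 of the 28 probes of these miRNAs the signal was positive on all 4 arrays. All 22 had the sign of their miRNA in both replicates, but these probes make up the tested sums and give no separate support.

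**Figure D1:**
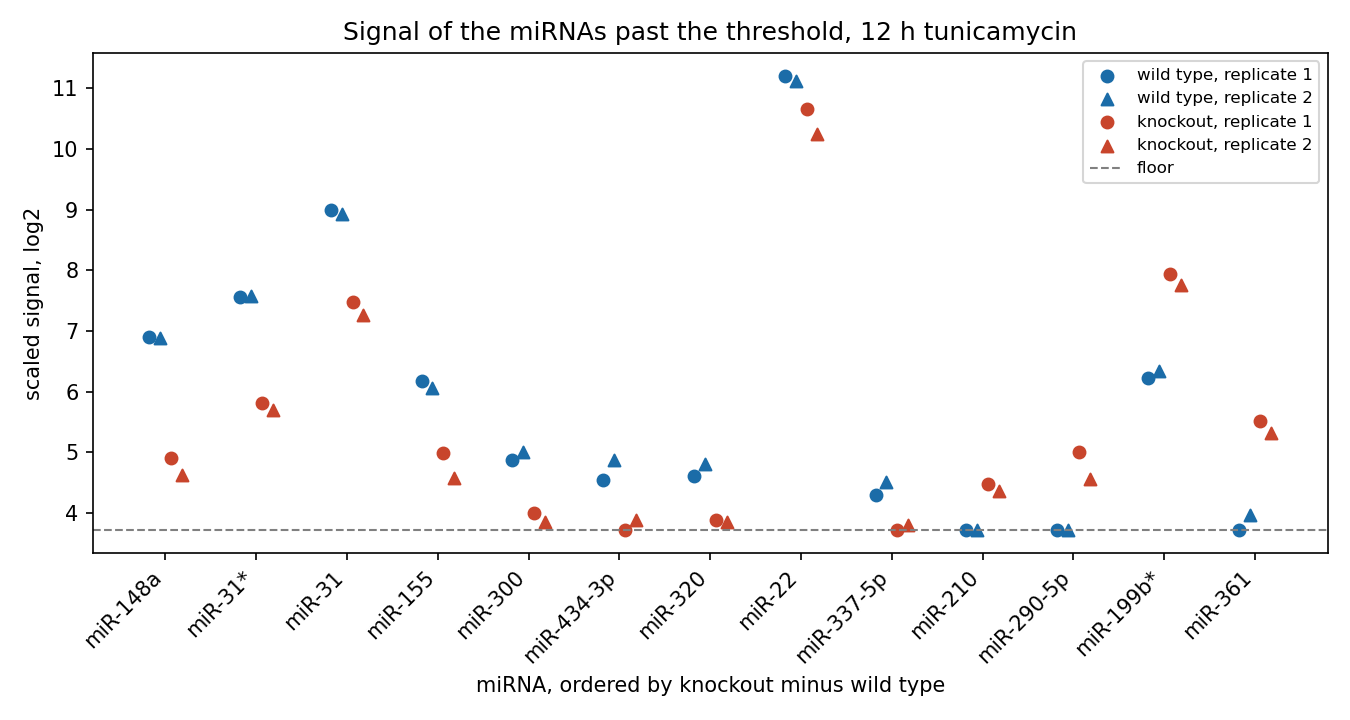
Scaled signal (log2, vertical axis) of the 13 miRNAs that differed between the genotypes, with 1 point per array at 12 h; circles are replicate 1, triangles replicate 2, and the dashed line is the floor. The knockout points (red) lie below the wild type points (blue) for the 9 miRNAs on the left and above them for the 4 on the right, and wild type is at or near the floor for miR-210, miR-290-5p and miR-361.

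The miR-31 hairpin gave the differences with the smallest p-values. miR-31 is studied mostly for its part in cell migration and cancer. Its signal was 509 and 489.7 on the wild type arrays and 179 and 154 on the knockout arrays. Both wild type values were far above both knockout values (log2 difference -1.59, SE 0.13, limma adjusted p = 0.000593). In bulk RNA, fewer cells that make a miRNA and less of it per cell cannot be told apart. miR-31*, cut from the other arm of the same hairpin, had a signal of 189 and 190.2 on the wild type arrays and 56.3 and 51.8 on the knockout arrays. The groups again did not overlap (log2 difference -1.81, SE 0.13, limma adjusted p = 0.000494). Each strand has 2 probes of different brightness, and for miR-31 the difference was -1.51 and -1.66 by the brighter probe in replicates 1 and 2, against -1.50 and -1.67 by the dimmer one. The seeds of the strands differ, so they do not count as 1 family. The same difference was measured without tunicamycin: miR-31 was -1.66 (SE 0.13) in untreated cells and -1.60 (SE 0.13) at 24 h, and miR-31* was -1.65 and -1.78. miR-31 stayed past the threshold in 20 of 21 alternative analyses and miR-31* in 17 of 21.

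miR-148a had the largest difference among the 13. This family represses, among other mRNAs, that of the DNA methyltransferase DNMT1. The signal of miR-148a was 119 and 118 on the wild type arrays and 29.9 and 24.6 on the knockout arrays. Both knockout values were far below the wild type values (log2 difference -2.13, SE 0.33, limma adjusted p = 0.0112). The call ended in 7 of 21 alternative analyses, among them those without knockout replicate 1 (-2.27) and without knockout replicate 2 (-1.99). miR-152, with the same seed, had signals of 18.7, 16.7, 12.0 and 12.7 in the same order and was detected on none of the 4 arrays. miR-148b was detected on none either and lay at the floor on all 4. In untreated cells the miR-148a difference was -0.95 (SE 0.33, limma adjusted p = 0.137) and at 24 h -1.31 (adjusted p = 0.0621), with no call at either. The difference between 12 h and untreated did not pass the test (limma adjusted p = 0.313).

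miR-155, made from an immune-induced non-coding transcript, had a signal that was 72.6 and 66.9 on the wild type arrays and 31.9 and 23.8 on the knockout arrays. The groups did not overlap (log2 difference -1.34, SE 0.21, limma adjusted p = 0.0112). Its difference was larger in untreated cells (-2.82, SE 0.21), where the signal was 96.6 and 101 on the wild type arrays and 14.1 and 13.9 on the knockout arrays. The difference at 12 h was thus smaller than without the drug by 1.48 (SE 0.30, limma adjusted p = 0.0337); between the conditions the knockout signal was higher at 12 h and the wild type signal lower. This test lost its call with the replicate number as a block (adjusted p = 0.0511), without knockout replicate 1 (adjusted p = 0.127) and without wild type replicate 2 (0.051). It was also lost with quantile normalization (1.32, adjusted p = 0.353) and normexp (0.33, adjusted p = 0.993), and the sign turned with the software's total gene signal (-0.35, adjusted p = 0.261). The call at 12 h itself ended in 7 of 21 alternative analyses, among them the one without knockout replicate 2 (-1.13). It also ended with quantile normalization (-1.23, limma adjusted p = 0.218) and with the 4 arrays at 12 h alone (limma adjusted p = 0.143).

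miR-22, among the abundant miRNAs of fibroblasts, had a signal of 2369.7 and 2220.2 on the wild type arrays and 1620.2 and 1220.1 on the knockout arrays. Every knockout value was below every wild type value (log2 difference -0.71, SE 0.14, limma adjusted p = 0.0328). The call ended in 10 of 21 alternative analyses, among them quantile normalization (-0.11, limma adjusted p = 0.83) and the replicate number as a block (limma adjusted p = 0.0559). Also among the 10 were the fits without wild type replicate 1, wild type replicate 2 or knockout replicate 2 (-0.66, -0.75 and -0.50). miR-320, which is processed by Dicer without Drosha, had a signal of 24.2 and 27.8 on the wild type arrays and 14.7 and 14.3 on the knockout arrays. It lay near the floor in the knockout (log2 difference -0.84, SE 0.18, limma adjusted p = 0.0434). Its call ended in 14 of 20 alternative analyses, among them the block (limma adjusted p = 0.053). Also among the 14 were the fits without wild type replicate 2, knockout replicate 1 or knockout replicate 2 (-0.74, -0.86 and -0.82).

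The Dlk1-Dio3 region is an imprinted locus whose many miRNAs are made from the maternal chromosome and are high in embryonic tissue. Of the 59 listed miRNAs of the region on the array 14 were tested: 3 were lower in the knockout and none was higher. Over all 256 tested, 9 were lower (3.52%) and 4 were higher (1.56%). The median difference of the list was -0.57 against -0.09 over all 256 tested. The list leaves out miR-654-3p, a neighbour of miR-300, and miR-485*, the other strand of the listed miR-485. Both were tested and not called, and miR-654-3p and miR-300 together had a median of -0.51. The signal of miR-434-3p was 23.2 and 29.4 on the wild type arrays and 12.0 and 14.7 on the knockout arrays. It was detected on both wild type arrays and on neither knockout array (log2 difference -0.91, SE 0.11, limma adjusted p = 0.00524). The signals were 1.96-fold lower in the knockout, which is a ratio to undetected signals and no bound. miR-337-5p, detected in the same pattern, had a signal of 19.5 and 22.7 on the wild type arrays and 10.9 and 13.9 on the knockout arrays. Its signals were 1.71-fold lower in the knockout, again no bound (log2 difference -0.65, SE 0.11, limma adjusted p = 0.0152, and 0.0567 with the block). Without knockout replicate 1 the difference was -0.61, and without knockout replicate 2 it was -0.69. The signal of miR-300, detected on all 4 arrays, was 29.1 and 32.2 on the wild type arrays and 15.9 and 14.4 on the knockout arrays. Both of its knockout values were below both wild type values (log2 difference -1.01, SE 0.21, limma adjusted p = 0.0375), and the call ended without any 1 of wild type replicate 2, knockout replicate 1 and knockout replicate 2 (adjusted p = 0.104, 0.117 and 0.179). Among the others, miR-494, named after its values were seen, had the opposite sign: its signal was 22.7 and 23.1 on the wild type arrays and 48.5 and 54.9 on the knockout arrays (log2 difference 1.17, SE 0.64, limma adjusted p = 0.446). Across the alternative analyses that tested it, miR-434-3p stayed past the threshold in 12 of 18, miR-337-5p in 5 of 18 and miR-300 in 6 of 21. Within the list the median was -0.25 in replicate 1 and -0.86 in replicate 2, against 0 and -0.48 over all 256 tested.

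Of the 4 miRNAs that were higher in the knockout, only miR-199b* was detected on all 4 arrays. It is a strand of the miR-199b hairpin, whose relatives are typical of mesenchymal cells, and its signal was 75.1 and 80.6 on the wild type arrays and 245 and 216 on the knockout arrays. Both knockout values were far above both wild type values (log2 difference 1.57, SE 0.21, limma adjusted p = 0.00741). It differed likewise in untreated cells (2.02, SE 0.21) and at 24 h (2.22). The signal of miR-361 was 13.1 and 15.7 on the wild type arrays and 45.9 and 39.7 on the knockout arrays, and it was detected only on the knockout arrays. The knockout level was at least 2.19-fold that of wild type (log2 difference 1.58, SE 0.24, limma adjusted p = 0.0112). miR-210, the miRNA most regularly induced by hypoxia, had a signal of 8.35 and 5.62 on the wild type arrays and 22.3 and 20.5 on the knockout arrays. It too was detected only in the knockout, and its ratio to wild type was at least 1.097 (log2 difference 0.71, SE 0.11, limma adjusted p = 0.0112). miR-290-5p, of a cluster known from embryonic stem cells, was detected on none of the 4 arrays, so its call (limma adjusted p = 0.00741) compares signals below detection and gives no level.

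The higher calls were not kept under every setting. With normexp, which also replaces the processed signal by median spot signals and adds an offset, the median over the 256 miRNAs was -0.56. Beside that median, miR-361 was -0.49, miR-210 -0.61 and miR-290-5p -0.68, none past the threshold. miR-199b* was 0.23 with normexp and -0.033 with the scanner software's total gene signal. Unscaled, those totals of miR-199b* were 50.02 and 93.0 on the wild type arrays, against sums of its own probe totals of 17.7 and 36.1. On the knockout arrays they equalled those sums, 72.7 and 155. The calls of miR-361 and miR-210 also ended without either knockout array (adjusted p from 0.0713 to 0.117).

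**Figure D2:**
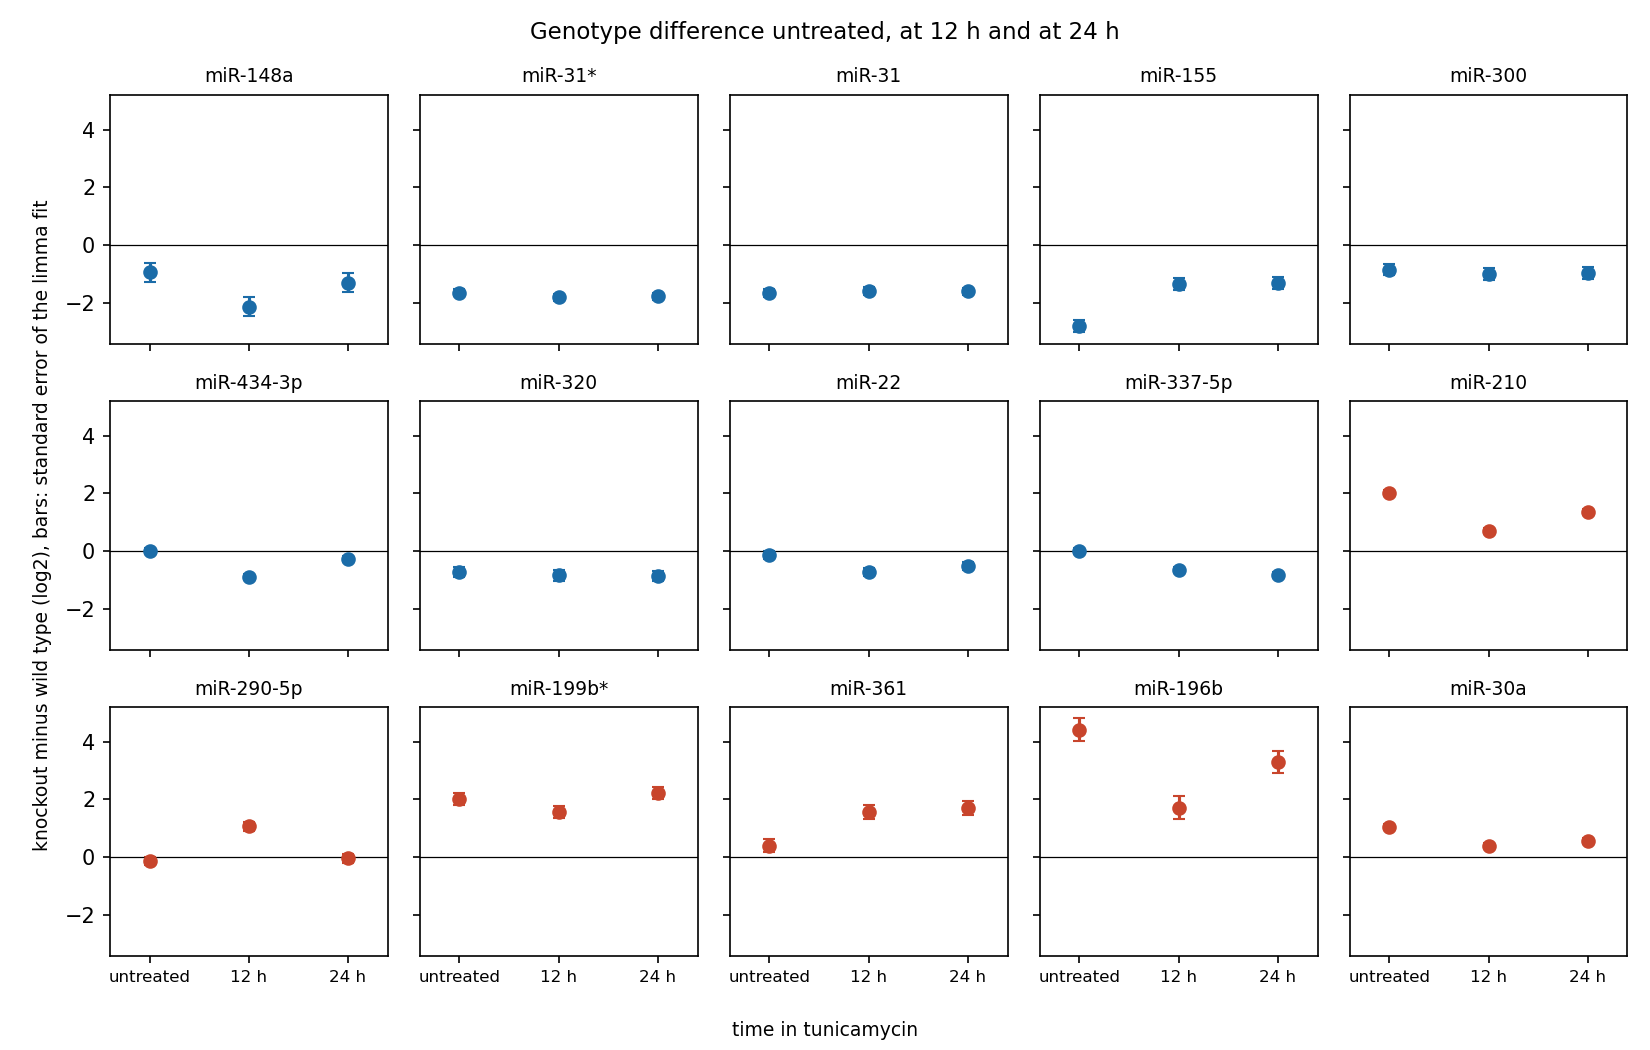
Knockout minus wild type (log2, vertical axis) untreated, at 12 h and at 24 h of tunicamycin for the 13 miRNAs that differed at 12 h and for miR-196b and miR-30a; bars are the standard error of the limma fit with 2 arrays a group, and where no bar is seen it is smaller than the point; points are red for miRNAs higher in the knockout at 12 h and blue for those lower. miR-31 and miR-31* stay between -1.81 and -1.59 in all 3 conditions, whereas miR-155 is at -2.82 untreated and -1.34 at 12 h.

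The genotype difference at 12 h was set against the one in untreated cells to see which differences came with the drug. The untreated comparison called 32 miRNAs (12.5% of those tested) and the 24 h comparison 20 (7.81%). Of the 13 called at 12 h, 10 had the same sign untreated and 12 at 24 h. Of these 13, 7 were called in all 3 conditions. The groups compared share no arrays. The fit pools the spread of each miRNA over all 12 arrays, however, so the 3 sets of calls are not independent. Tested directly, the genotype difference at 12 h differed from the untreated one for 15 miRNAs (5.86%), of which 8 were detected on no array at 12 h. None was past the threshold when values at the floor at 12 h were left out, and 10 were with the replicate block. It differed from the one at 24 h for none of the 256 (0%; 10 at an unadjusted p under 0.05 by limma, and 0 with the replicate block). Untreated and treated arrays lay on different slides, while both genotypes of a condition shared a slide; in a change from untreated to 12 h, treatment and slide cannot be told apart.

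For miR-210 the fitted difference was 2.02 untreated and 0.71 at 12 h (change -1.31, SE 0.15, limma adjusted p = 0.00498). Its untreated signal was 37.5 and 36.6 on the wild type arrays and 148 and 152.3 on the knockout arrays. Neither wild type array was above the floor after 12 h, so the size of the change depends on the floor. It did not pass with the floor at the 1st percentile of detected signals (-0.49, adjusted p = 0.925) or with median scaling (-0.78, adjusted p = 0.0663). For miR-434-3p the change was -0.91 (SE 0.15, adjusted p = 0.0149), but the untreated signals, 12.4 and 10.8 in wild type against 8.34 and 7.70 in the knockout, were all under the floor, so no untreated difference was measured; with the lower floor the change was -0.44, adjusted p = 1. miR-196b, from a Hox gene cluster, had a signal of 23.4 and 41.6 on the wild type arrays and 115 and 91.5 on the knockout arrays at 12 h. All knockout values exceeded the wild type ones without a call (log2 difference 1.71, SE 0.39, limma adjusted p = 0.0529). Untreated, it had signals of 3.42 and 5.99 on the wild type arrays and 278 and 280.4 on the knockout arrays, and the change of the difference was -2.70 (SE 0.55, adjusted p = 0.0337). Both untreated wild type signals were under the floor, so the size of this change depends on the floor (-3.71 with the lower floor). miR-196a, which differs from miR-196b by 1 base, had the opposite sign at 12 h (log2 difference -0.97, SE 0.53, limma adjusted p = 0.446). For miR-30a the difference was 1.04 untreated and 0.40 at 12 h (change -0.63, SE 0.14, adjusted p = 0.0486). With the replicate block the tests of miR-196b and miR-30a did not pass (adjusted p = 0.103 and 0.118). The miR-30a test also ended without any 1 of the 4 arrays at 12 h (adjusted p from 0.0751 to 0.153), the miR-434-3p test without knockout replicate 1 (0.0587), and the miR-196b test without either knockout array or wild type replicate 2 (from 0.054 to 0.145).

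miR-195 and miR-497 come from 1 primary transcript and share a seed with miR-15 and miR-16, which restrain the cell cycle. At 12 h the signal of miR-497 was 24.1 and 30.0 on the wild type arrays and 12.9 and 10.97 on the knockout arrays. It was detected on 1 wild type array only (log2 difference -1.04, SE 0.23, limma adjusted p = 0.0529). Untreated, the order of the genotypes was the other way round, with 1.18 for miR-497 and 1.29 for miR-195. The change from untreated to 12 h passed the test for both (-2.22, adjusted p = 0.0116, and -2.01, adjusted p = 0.0116). Both knockout signals of miR-497 and both of miR-195 at 12 h were under the floor, so the size of each change depends on the floor. The 2 probes of miR-195 gave 9.79 and -0.62 in knockout replicate 1, and 7.80 and 2.14 in knockout replicate 2. For miR-195 the 12 h difference ran from -1.21 to 0 across 17 alternative analyses. The 6 tested members of the family had a median of -0.27 at 12 h and 0 were called by limma, 2 being under 0.05 unadjusted.

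miR-23a, miR-27a and miR-24 are cut from 1 transcript, which has a paralogous copy giving miR-23b, miR-27b and the same miR-24. The signal of miR-27a was 706 and 626 on the wild type arrays and 1426 and 976 on the knockout arrays. Both knockout values were above both wild type values, without a call (log2 difference 0.83, SE 0.21, limma adjusted p = 0.077). The signal of miR-23a was 891 and 742 on the wild type arrays and 1398 and 1023 on the knockout arrays, again without overlap (log2 difference 0.56, SE 0.19, limma adjusted p = 0.165). With the replicate number as a block both were past the threshold (adjusted p = 0.0229 and 0.0236). miR-23b, of the paralogous transcript, was lower in the knockout in both replicates (log2 difference -0.69, SE 0.49, limma adjusted p = 0.616). The difference of the miR-24 signal was 0.35 (SE 0.09, limma adjusted p = 0.0832). Over the 7 tested miRNAs of both transcripts the median was 0.00, with 0 called by limma and 3 under 0.05 unadjusted. Only 5 of the 7 were detected at 12 h, and the 5 above the floor on all 4 arrays had a median of 0.35.

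miR-221, which represses the cell cycle inhibitor p27, had a signal that was 91.6 and 76.4 on the wild type arrays and 212 and 151.6 on the knockout arrays. The groups did not overlap (log2 difference 1.099, SE 0.26, limma adjusted p = 0.0623), and the block gave an adjusted p of 0.0229. miR-222, its neighbour with the same seed, was detected on none of the 4 arrays. The 3 miR-29 miRNAs, which repress collagens, were all higher in the knockout in both replicates. Their differences were 0.36 for miR-29a, 0.59 for miR-29b and 0.41 for miR-29c, and none was called (limma adjusted p = 0.0832, 0.165 and 0.594).

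The let-7 family holds back proliferation and growth in many tissues. All 9 tested members were detected on all 4 arrays, 0 were called by limma (2 were under 0.05 unadjusted), and 7 were lower in the knockout in both replicates. The median difference was -0.19, against -0.23 over the 157 miRNAs detected on all 4 arrays, of which 72 were lower in both replicates. let-7b had the smallest p of the family, with a signal that was 1841 and 1879 on the wild type arrays and 1474 and 1207 on the knockout arrays (log2 difference -0.48, SE 0.12, limma adjusted p = 0.0634). miR-99a, which with its relative miR-100 represses mTOR, had a signal of 38.4 and 41.2 on the wild type arrays and 0.0831 and 1.91 on the knockout arrays. It was detected in wild type only and was at least 3.43-fold lower in the knockout (log2 difference -1.60, SE 0.73, limma adjusted p = 0.367). The signal of miR-100 was 41.4 and 56.7 on the wild type arrays and 19.1 and 25.2 on the knockout arrays, with no overlap and no call (log2 difference -1.14, SE 0.36, limma adjusted p = 0.133). The fit shares 1 spread per miRNA over all 6 groups. With the 4 arrays at 12 h alone, 15 miRNAs were called, 7 of them among the 13, and miR-99a was past the threshold (adjusted p = 0.0242).

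Of the 256 tested miRNAs, 16 were detected on both arrays of 1 genotype and on none of the other: 12 in the knockout and 4 in wild type. The lowest detected scaled signal was 19.5 and 19.4 on the wild type arrays, against 9.74 and 13.8 on the knockout arrays. The part of these unequal limits in the counts of 12 and 4 was not tested. miR-194, named after its values were seen, had a signal of 79.4 and 117 on the wild type arrays and -7.77 and -5.13 on the knockout arrays. It was at least 8.29-fold lower in the knockout (log2 difference -2.88, SE 0.72, limma adjusted p = 0.0684). miR-721, likewise named after its values were seen, had a signal of -0.934 and -0.798 on the wild type arrays and 70.3 and 74.97 on the knockout arrays, which puts it at 3.73-fold or more above wild type (log2 difference 2.47, SE 0.75, limma adjusted p = 0.12). The signal of miR-135a* was -4.57 and -7.25 on the wild type arrays and 109 and 84.3 on the knockout arrays, a ratio of at least 4.92 (log2 difference 2.87, SE 1.13, limma adjusted p = 0.251). None of these 3 was called in the fit over all 12 arrays. miR-10b, a Hox cluster miRNA detected on all 4 arrays, had the largest difference of any miRNA so detected: its signal was 23.2 and 31.2 on the wild type arrays and 198 and 163 on the knockout arrays. It was not called either, its SE being 1.19 (log2 difference 2.74, limma adjusted p = 0.324).

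**Figure D3:**
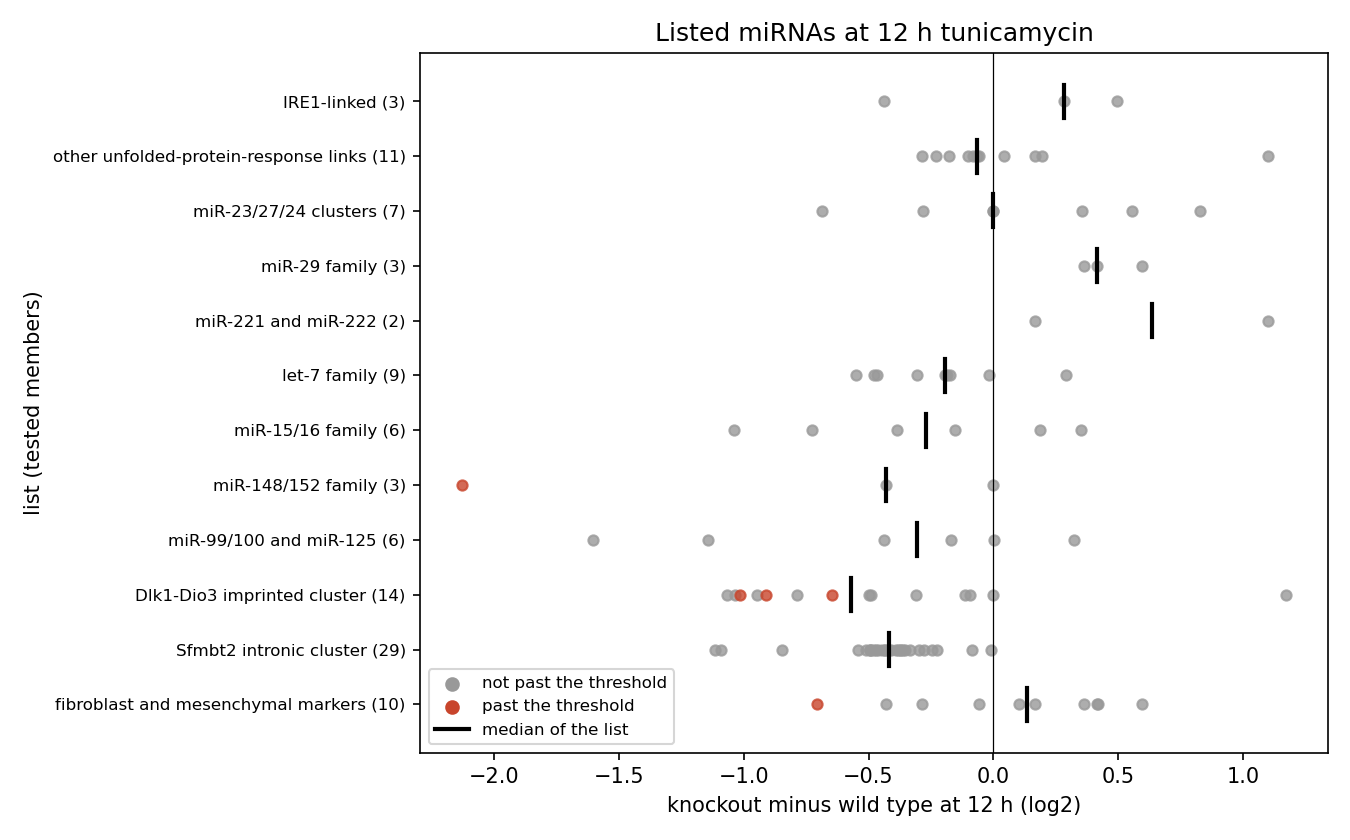
Knockout minus wild type at 12 h (log2, horizontal axis) for the tested members of 12 lists of miRNAs, 1 point per miRNA, with the median of each list as a black bar. Called miRNAs (red) are in the Dlk1-Dio3, miR-148 family and fibroblast lists, and the medians run from -0.57 for the Dlk1-Dio3 cluster to 0.63 for miR-221 and miR-222.

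Among miRNAs tied to the unfolded protein response by earlier work none was past the threshold at 12 h, while miR-221, described above, was with the replicate block (limma adjusted p = 0.0229). IRE1, the enzyme that splices the Xbp1 mRNA, has been reported to cut the precursors of miR-17, miR-34a, miR-96 and miR-125b, and the last 3 were tested. The signal of miR-34a was 166 and 172 on the wild type arrays and 254 and 223 on the knockout arrays. Both knockout values were above both wild type values (log2 difference 0.49, SE 0.31, limma adjusted p = 0.537). The signal of miR-96 was 174 and 156 on the wild type arrays and 226 and 177 on the knockout arrays, with no overlap (log2 difference 0.28, SE 0.21, limma adjusted p = 0.648). miR-125b-5p was lower in the knockout, with a signal that was 2243 and 2125 on the wild type arrays and 1729 and 1498 on the knockout arrays (log2 difference -0.44, SE 0.15, limma adjusted p = 0.166). The 3 had a median difference of 0.28 and 1 was under 0.05 unadjusted.

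Of 19 further miRNAs linked to the response, 11 were tested, 0 were called (limma; the unadjusted p of miR-221 alone was under 0.05) and the median was -0.06. miR-346, reported as an XBP1-induced miRNA, had a signal of 401 and 763 on the wild type arrays and 609 and 533 on the knockout arrays. The groups overlapped and the first wild type array was the lowest of the 4 (log2 difference 0.04, SE 1.11, limma adjusted p = 1). miR-211, induced downstream of the sensor PERK, had a signal of 98.4 and 268 on the wild type arrays and 180.3 and 130.4 on the knockout arrays. Here the wild type arrays held both the lowest and the highest value (log2 difference -0.08, SE 0.52, limma adjusted p = 1). The miR-106b, miR-25 and miR-93 miRNAs of 1 host transcript had differences of -0.10, -0.06 and 0.20. miR-214 and miR-199a-5p, which repress the sensor ATF6 and its partners, were -0.28 and -0.06, and miR-204 and miR-7a were -0.23 and -0.18, all without a call.

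The 2 replicates did not give the same level of difference. Over the 157 miRNAs detected on all 4 arrays the median of knockout minus wild type was 0.03 in replicate 1 and -0.62 in replicate 2. In 85 of them (54.1%) the groups did not overlap, 62 being lower and 23 higher in the knockout. The median size of the genotype difference was 0.35, against 0.23 between the wild type replicates and 0.27 between the knockout replicates. The wild type replicates stood apart most in miRNAs not seen in untreated cells. Of the 157, 24 were detected on none of the untreated arrays. Wild type replicate 2 was the highest of the 4 arrays in 23 of them and wild type replicate 1 the lowest in 17, and their median difference was 0.57 in replicate 1 and -0.76 in replicate 2, with 0 called. In the 119 detected on all 4 untreated arrays these medians were -0.02 and -0.36, and 7 were called. Without wild type replicate 1 the comparison called 39 miRNAs, 35 of them lower in the knockout, and without wild type replicate 2 it called 26, 20 of them higher.

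**Figure D4:**
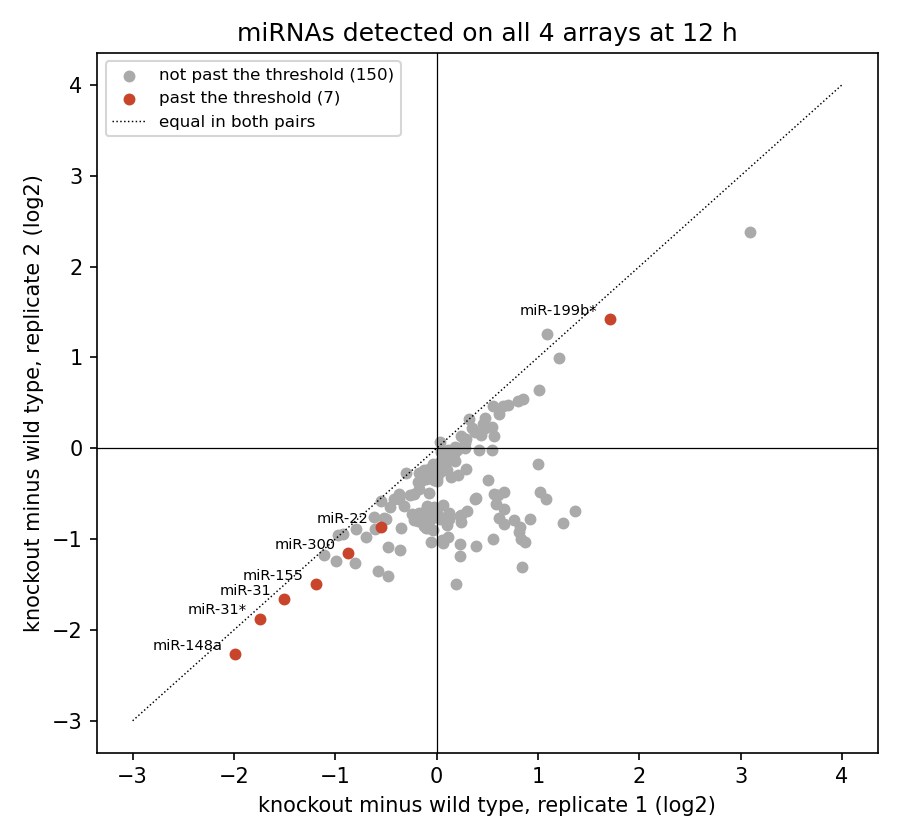
Knockout minus wild type (log2) in replicate 1 (horizontal axis) and in replicate 2 (vertical axis) for the 157 miRNAs detected on all 4 arrays at 12 h, 1 point per miRNA; the dotted line marks equal differences. The 7 called miRNAs (red) lie close to that line, and many others lie to the right of 0 in replicate 1 and below 0 in replicate 2.

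An intron of Sfmbt2 holds a rodent cluster with many near-identical miRNAs, among them miR-467b and miR-669 forms. Its members share stretches of sequence, and how far the probes tell them apart was not tested. All 29 tested members had a negative fitted difference, from -1.12 to -0.01, and 0 were called by limma (2 were under 0.05 unadjusted). Wild type replicate 2 was the highest array for 26 of the 27 detected on all 4. Over all miRNAs, 154 of 256 tested had a negative difference, as had 112 of the 157 detected on all 4 arrays. Wild type replicate 2 was the highest array for 86 of those 157, and their median difference was -0.23. The cluster median was -0.42, made up of -0.05 in replicate 1 and -0.78 in replicate 2. Untreated it was -0.30 and at 24 h -0.54. miR-467b had the smallest p of the cluster, with a signal that was 112 and 82.4 on the wild type arrays and 56.1 and 34.9 on the knockout arrays (log2 difference -1.12, SE 0.33, limma adjusted p = 0.111).

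The labelled cell type was checked against its markers. Of 11 fibroblast and mesenchymal miRNAs on the array 10 were tested and 7 were detected on all 4 arrays, with summed signals between 17147 and 20996 on the 4 arrays; miR-22 was the 1 called. miR-21, the main part of that sum, was not called (log2 difference 0.10, SE 0.20, limma adjusted p = 1). None of 7 epithelial and 2 endothelial miRNAs was detected on both arrays of any group. Of 7 blood miRNAs only miR-155 was tested, and the list summed, with the negative signals of undetected members, to 39.1 and 54.9 on wild type and 6.63 and 0.148 on knockout arrays. Of 8 neural, 4 muscle and 12 pluripotent miRNAs, 5, 1 and 3 were tested, and miR-290-5p was the 1 called. A part of other cells in the miR-155 difference was not tested.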

How the data were processed

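MicroRNA levels of 12 arrays were measured, and 4 of them are compared here. The scanner files hold spot intensity made with Agilent Feature Extraction 10.7.1.1, background-subtracted and spatially detrended, per the file headers, which record no step between arrays. The authors' deposited log2 values equal the log2 of that software's total gene signal. Control and outlier spots were left out, spots averaged per probe and probes summed per miRNA. Arrays were scaled to the 75th percentile of the 95 mouse miRNAs detected on all 12 arrays, floored at the 5th percentile of detected signals, and put on the log2 scale. limma 3.58.1 (R 4.3.3, package data.table version 1.17.8) fitted 1 mean per group to all 12 arrays with an intensity trend, 6 residual degrees of freedom and a prior of 0.981. p-values were adjusted by Benjamini-Hochberg over 256 miRNAs, and the threshold was 0.05. A bound sets the brighter group against, per array, the higher of the lowest detected signal and the miRNA's own. SEs near the floor are too small, since floored values have no spread.

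The labels give both genotypes the same replicate numbers, and same-numbered arrays were scanned together. Their deviations from the group means correlated at 0.876 untreated, 0.388 at 12 h and 0.406 at 24 h. The numbers were therefore taken to pair the arrays. The main fit, which gave the counts of 13 and 15, does not use this pairing, and a fit with the number as a block was added. This block held 1 term for replicate 2 among the 8 tunicamycin arrays and 1 among the 4 untreated arrays. Arrays of 12 h and 24 h thus shared a block effect. The normexp alternative used median spot and background signals with an offset of 50. Unless the text says otherwise, miRNAs were named from those past the threshold and detected in a 12 h group (up to 12 each way), the 12 smallest p-values among those so detected, up to 4 per list of 30 lists, all those of both unfolded-protein-response lists, the 8 brightest at 12 h, and those past the threshold in a difference of differences. Members and lists were chosen with earlier results of these data known. Plots were made with matplotlib 3.10.9 in Python 3.11.15. miRNA names are those of the array's design, and genome positions are left out, since the array files state no build.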

Additional observations from a re-analysis of the deposited data

Results flagged for a closer look

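The genotype difference (knockout minus wild type) at 12 h differed from the one in untreated cells for 5 miRNAs detected on both arrays of a genotype at 12 h, by limma's test of the difference itself. On the log2 scale the change was -0.91 for miR-434-3p, -1.31 for miR-210, 1.48 for miR-155, -2.70 for miR-196b and -0.63 for miR-30a. All 4 untreated signals of miR-434-3p were under the floor, so its change is not one between measured differences, and both wild type signals of miR-210 were under it at 12 h. Both untreated wild type signals of miR-196b were under the floor as well. Across 11 alternatives the test of miR-210 was past the threshold in 8 and that of miR-434-3p in 5, and across 12 that of miR-196b was in 6, miR-155 in 3 and miR-30a in 1.

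Probes for viral miRNAs, which no comparison used, gave signal in these mouse cells. mghv-miR-M1-6 was detected on 3 of the 4 arrays at 12 h and on none of the untreated arrays, and mcmv-miR-m59-2 on 1 of 4 and on none. mghv-miR-M1-2 was detected on all 12 arrays, with scaled signals at 12 h of 875 and 503.1 (wild type) and 880.3 and 264 (knockout), against 17.2 to 102 on the untreated arrays. Its part in the signals of mouse miRNAs was not tested.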

How the results depend on the processing

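The count of 13 miRNAs between the genotypes at 12 h became 5 with normexp, 7 with quantile normalization, 4 with the percentile over all mouse miRNAs, 26 with total gene signal, 0 with the deposited log2 values left unscaled (182 tested, 13 at an unadjusted p under 0.05), 8 with floored values left out, 6 with miRNAs detected on all 4 arrays, 3 with the 8 tunicamycin arrays, and 5 to 39 with 1 array left out. The replicate block gave 14 calls, 10 of them shared. The 15 of the difference from untreated became 6 with normexp, 8 with the percentile over all mouse miRNAs, 26 with total gene signal, 0 with floored values left out, 12 with the block and 5 to 31 with 1 array left out. The 0 of the difference from 24 h became 2 with normexp, 7 with total gene signal and 0 to 22 with 1 array left out. miR-199b* turned to -0.033 with total gene signal, and with normexp miR-290-5p turned to -0.68, miR-210 to -0.61 and miR-361 to -0.49. Of uncalled miRNAs, miR-615-3p ran from -1.20 without wild type replicate 1 to 0.24 without wild type replicate 2, and miR-206 from -0.62 to 1.04, past the threshold each time. An arm left with 1 array is taken to vary like the other groups. Signals near background limit all miRNAs below the floor, and the cause of these changes was not tested.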

Other observations

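The deposited values of many miRNAs hold the signal of another miRNA. On the 4 arrays at 12 h the software's total gene signal, of which the deposited value is the log2, was more than 1.5 times the sum of the total probe signals of the miRNA's own probes for 60, 58, 63 and 49 detected miRNAs (wild type replicates 1 and 2, knockout replicates 1 and 2), 25.3% to 34.5% of those detected. In all 230 cases it equalled, to within 0.1%, the total of the detected miRNA before it in name order plus 1 or more of its own probe totals. It did so with the next miRNA in 0 of the 230. Over all 12 arrays the first held for 660 of 661 cases and the second for 1.

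Of the 12 miRNAs called at 12 h that were detected there, 7 had such a total on at least 1 array. The probe totals of miR-155 summed to 17.1 and 30.0 (wild type) and 9.45 and 17.0 (knockout), unscaled, while its total gene signals were 58.7, 108, 56.3 and 108. miR-199b* had such totals on the wild type arrays only, 50.02 and 93.0 against probe sums of 17.7 and 36.1. miR-31 and miR-31* had none. Why the software wrote these totals was not tested.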
